A study of Mus musculus with 2 samples.

Results

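The S100 calcium-binding proteins measured here are the products of 10 genes, *S100a1*, *S100a4*, *S100a6*, *S100a8*, *S100a9*, *S100a10*, *S100a11*, *S100a13*, *S100a14* and *S100a16*. They were taken by name from the 25810 genes with a symbol in the deposited tables of mammary epithelial cells (MECs) on lactation day 3. All 10 reached at least 1 read per 1000000 mapped reads (RPM) in at least one library, as did 14026 of the 25810 genes. The tables hold 6 further S100 genes, *S100a3*, *S100a5*, *S100a7a*, *S100b*, *S100g* and *S100z*, of which *S100a7a* alone reached 1 RPM.

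RNA came from inguinal glands of wild-type (WT) mice and of mice lacking *Igfbp7*, a secreted protein that binds insulin-like growth factors, with 1 library for each genotype. The number and the age of the animals behind each library are not given in the sources used here. The first coding exon of *Igfbp7* was deleted in the germ line, so that every cell type of the *Igfbp7*-/- animal carries the deletion. The sample labels give C57BL/6 as the background of both groups, whereas the methods state that the knockout was made on CD1. Dissociated cells were depleted on magnets of cells carrying CD45, CD31 or Ter119 (the labels print CD35 in place of CD31), which mark leukocytes, endothelium and erythroid cells, and poly(A) RNA of the remaining cells was sequenced. Poly(A) RNA from such a suspension is bulk RNA: fewer cells of one type and less RNA per cell cannot be told apart in any difference given here.

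S100 proteins are small calcium sensors that carry a pair of EF-hand loops and work mostly as dimers. On binding calcium, most of them expose a surface that holds a partner protein, such as an annexin, a myosin or a receptor. Some are also released from cells, where S100A8 and S100A9 together form calprotectin, a metal-sequestering complex of neutrophils and of stressed epithelia. In the lactating gland the family lies across secretory epithelium, contractile myoepithelium, stroma and leukocytes.

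All 10 genes lie on chromosome 3. The data list 13 S100 genes on that chromosome. In the NCBIM37 mouse build (mm9, the build named in the labels), 11 of them fill 184.7 kb, from 90314956 to 90499643. These positions are where *S100a1* begins on the minus strand and where *S100a9* ends. *S100a1* and *S100a13* lie head to head, 42 bp apart. *S100a11* (93324410 to 93330209) and *S100a10* (93359002 to 93368565) lie together, 2825 kb beyond *S100a9*. None of the exons of these 13 genes overlapped an exon of another annotated gene. The annotated transcripts of the 10 genes were aligned to the same genome (at least 90% identity). Matches in or close beside the gene itself were not counted, and for some members a neighbouring S100 gene lies that close. Of the 10 genes, 9 had no match outside this stretch. *S100a11* had 4, the longest covering 502 bp at 98.6% identity, so that its reads could have been split between near-identical copies and its counts are uncertain.

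The start regions of *S100a16*, *S100a4* and *S100a9*, for which lower values were measured in *Igfbp7*-/- MECs, and of *S100a8*, the dimer partner of *S100a9*, are shown to let the members be compared at the sequence level. The sequences are RefSeq promoter windows (table build GRCm38.p6) located by exact match in NCBIM37, 100 bases before the annotated start and 10 after it, with matches to a searched motif in capitals.
S100a16, chr3:90341076-90341185, plus strand: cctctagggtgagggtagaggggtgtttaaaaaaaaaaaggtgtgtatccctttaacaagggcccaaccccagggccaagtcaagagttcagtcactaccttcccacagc
S100a4, chr3:90407592-90407701, plus strand: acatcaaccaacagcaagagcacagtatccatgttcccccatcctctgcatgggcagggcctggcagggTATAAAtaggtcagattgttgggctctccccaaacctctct
S100a9, chr3:90499634-90499743, minus strand: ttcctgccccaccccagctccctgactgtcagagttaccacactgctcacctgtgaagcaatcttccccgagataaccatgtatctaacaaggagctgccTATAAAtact
S100a8, chr3:90472893-90473002, plus strand: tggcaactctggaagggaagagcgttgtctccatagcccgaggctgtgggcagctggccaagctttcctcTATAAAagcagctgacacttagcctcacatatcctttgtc
The motif searches ran on both strands over the whole windows, 250 bases before the start and 50 after it. The TATA box, searched as TATAAA, was present at 3 of the 8 members with a window, which is *S100a4* (31 bases before the start), *S100a8* (30 bases before) and *S100a9* (beginning at the annotated start itself), against 14.2% of 27025 promoters. The motif of C/EBP factors, which act in myeloid and epithelial cells and were searched for as TTNNGNAA, was found once at *S100a8* and 2 times at *S100a9*, outside the stretches printed, and in 40.7% of all promoters. The GC box, searched as GGGCGG, was found 3 times at *S100a11* and once at *S100a9*, and in 35.9% of all promoters. The motif of AP-1 factors, searched as TGANTCA, was found 2 times at *S100a11* and in 7.93% of all promoters. The window of the printed *S100a16* start, the first of 2 listed for that gene, held no match to any of the 5 motifs, whereas the second held 1 GC box and 1 AP-1 match. The motif of STAT factors, searched as TTCNNNGAA, was found at none of the 8 members, against 8.47% of all promoters. The 2 members that had no window were *S100a10* and *S100a14*. These matches are strings of letters and not measured binding sites.

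The total behind the RPM values was 34327854 reads in WT and 35016847 in *Igfbp7*-/-, of which 82.4% and 72.3% lay on listed genes. *Igfbp7* itself had 5224 reads in WT and 37 in *Igfbp7*-/-. Low counts were even in 75.8% of WT genes and 74.1% of *Igfbp7*-/- genes with 1 to 20 reads, so the 95% intervals below treat 2 reads as 1 observation. They are exact intervals that cover counting error only. With 1 library per genotype no difference had a replicate check and none was tested. Log2 ratios are given as *Igfbp7*-/- over WT, and over all 14026 genes they had a median of 0.03 and quartiles of -0.52 and 0.51.

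Among the 10 S100 genes, 4 had lower values in *Igfbp7*-/- MECs by a factor of 1.5 or more, the fold cutoff used in the study, and 0 had higher ones. Of all 14026 genes, 23.0% were lower and 21.4% were higher by that cutoff. The 4 were *S100a16*, *S100a9*, *S100a4* and *S100a10*. The other 6 differed by less than 1.5-fold, 3 with a value above that of WT (*S100a8*, *S100a13* and *S100a14*) and 3 below it (*S100a1*, *S100a6* and *S100a11*). The median log2 ratio of the 10 genes was -0.34, and -0.26 without *S100a11*. Summed over the 10 genes, the level was 782.8 RPM in WT against 493.2 RPM in the knockout. Ratios were computed after adding 0.1 RPM to both values, whereas the intervals leave that constant out.

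Levels between genes were compared per transcript length, as the RPM per kilobase of gene length (RPKM). They are levels of the whole suspension and not of epithelium alone, since markers of other cell types also gave reads (below). In WT MECs *S100a10* was the most abundant member with 512.5 RPKM (95% interval 499.3 to 526.0), followed by *S100a11* with 377.7 RPKM. Together these annexin partners made up 42.1% and 31.0% of the summed RPKM of the family members. By RPKM *S100a10* ranked 62 among all genes kept. *S100a16* followed with 122.9 RPKM, *S100a6* with 92.1, *S100a8* with 44.2, *S100a9* with 23.7, *S100a1* with 20.9, *S100a13* with 8.84, *S100a4* with 7.61 and *S100a14* with 6.67 RPKM. The counting intervals of neighbours in this order were apart except those of *S100a9* and *S100a1* and those among *S100a13*, *S100a4* and *S100a14*.

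In *Igfbp7*-/- MECs the order of levels differed. *S100a11* (283.1 RPKM) and *S100a10* (281.7 RPKM) stood at the top with overlapping intervals. *S100a6* with 89.7 RPKM and *S100a8* with 54.1 RPKM came after them. *S100a16* followed with 43.3 RPKM, and its place among all genes kept moved from 333 to 1002. *S100a1* (17.4 RPKM) and *S100a13* (12.1 RPKM) came next, then *S100a9* (9.89 RPKM), *S100a14* (8.23 RPKM) and *S100a4* (3.45 RPKM). Intervals of neighbours overlapped for *S100a13* with *S100a9* and for *S100a9* with *S100a14*.

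**Figure D1:**
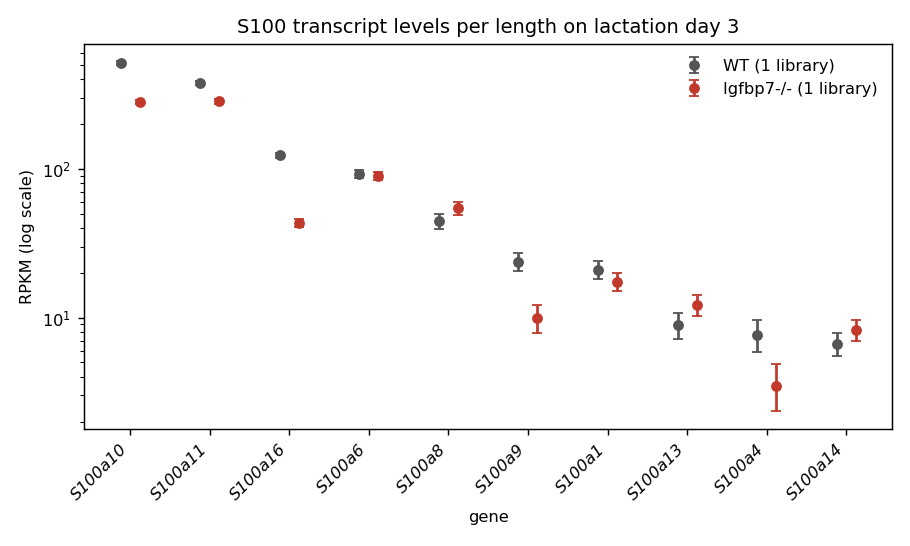
RPKM on a log axis (vertical) of the 10 S100 genes (horizontal) in the WT library (grey) and the *Igfbp7*-/- library (red), 1 library each, with 95% counting intervals as bars. *S100a10* and *S100a11* stand above the rest in both libraries, and *S100a16* shows the widest gap between the libraries, 122.9 against 43.3 RPKM.

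*S100a10* encodes p11, which stays in its partner-binding shape without calcium and joins annexin A2 in a complex that binds plasminogen at the cell surface. WT MECs gave 11436 reads (333.1 RPM), and *Igfbp7*-/- MECs gave 6411 (183.1 RPM). The value was 1.82-fold lower in *Igfbp7*-/- (log2 ratio -0.86, interval -0.93 to -0.80). *Anxa2*, its annexin partner, went from 313.7 RPM in WT to 228.8 RPM in the knockout (log2 ratio -0.46), a difference in the same direction that stayed within 1.5-fold. The ratio of *S100a10* to *Anxa2* within a library, which does not depend on how libraries are scaled, was 2.24 in WT and 1.69 in *Igfbp7*-/- by RPKM, a change of 0.753 times (interval 0.710 to 0.800). *Ahnak*, a giant scaffold protein bound by the p11 and annexin A2 complex, had 3614 RPM in WT against 4752 RPM in the knockout (log2 ratio 0.39).

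*S100a11* encodes a partner of annexin A1. Its reads numbered 6534 (190.3 RPM) in WT against 4997 (142.7 RPM) in the knockout (log2 ratio -0.42, interval -0.49 to -0.34), within 1.5-fold, and its near-identical copies in the genome leave these counts uncertain. *Anxa1*, by contrast, had 180.2 RPM in WT against 519.9 RPM in the knockout, 2.88 times the WT value (log2 ratio 1.53, interval 1.47 to 1.59). By RPKM there was 2.92 times as much *S100a11* as *Anxa1* in WT and 0.760 times as much in *Igfbp7*-/-. The order of the gene and its partner was therefore opposite in the libraries, a change of the within-library ratio of 0.260 times (interval 0.243 to 0.278).

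*S100a16*, a widely expressed member, and *S100a14*, an epithelial one, are neighbours on chromosome 3, 8.42 kb apart on the same strand. Reads of *S100a16* numbered 4602 (134.1 RPM) in WT against 1653 (47.2 RPM) in the knockout. Its value was 2.84-fold lower in *Igfbp7*-/- (log2 ratio -1.50, interval -1.62 to -1.39), the lowest ratio of the 10 genes. Reads of *S100a14* numbered 251 (7.31 RPM) against 316 (9.02 RPM) (log2 ratio 0.30, interval -0.04 to 0.66), and the interval includes 0. The within-library ratio of *S100a16* to *S100a14* was 18.4 in WT and 5.26 in *Igfbp7*-/- by RPKM, a change of 0.284 times (interval 0.220 to 0.367).

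*S100a8* and *S100a9* encode the subunits of calprotectin, and their values went apart. For *S100a8* WT MECs gave 595 reads (17.3 RPM) and *Igfbp7*-/- MECs 742 (21.2 RPM), a log2 ratio of 0.29 (interval 0.07 to 0.52) that stayed within 1.5-fold. For *S100a9* they gave 397 reads (11.6 RPM) and 169 (4.83 RPM), 2.37-fold lower in the knockout (log2 ratio -1.24, interval -1.65 to -0.89). By RPKM there was 1.87 times as much *S100a8* as *S100a9* in WT and 5.47 times as much in *Igfbp7*-/-. This within-library ratio was 2.94 times higher in *Igfbp7*-/- (interval 2.17 to 4.02), whichever way the libraries are scaled. *Tlr4*, a receptor for calprotectin, had 28.3 RPM in WT against 67.3 RPM in the knockout (log2 ratio 1.25). Other genes on the list of S100 binding partners and receptors examined below went the other way. *Bsg* had 159.3 RPM in WT against 98.7 RPM in the knockout (log2 ratio -0.69). *Cd36* had 545.8 against 409.0 RPM (log2 ratio -0.42), within 1.5-fold. *Ager*, the receptor for advanced glycation end products that binds several S100 proteins, had 20 reads in WT and 0 in *Igfbp7*-/-, where 3 reads would be 0.0857 RPM. It stayed under 1 RPM in both libraries.

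Neutrophils are the textbook source of *S100a8* and *S100a9*, so the neutrophil markers are given beside them. Of the 14 markers in the tables, 8 reached 1 RPM, of which 5 were lower by at least 1.5-fold, with a median log2 ratio of -0.81, and 2 were higher. Of all 14026 genes, 23.0% were lower and 21.4% higher by that cutoff. The lower ones were *Retnlg* (38 reads in WT, 6 in the knockout), *Cxcr2* (124 and 36), *Csf3r* (287 and 142), *Fpr1* (91 and 49) and *Ngp* (342 and 206). The higher ones were *Ltf* and *Mmp9* (29 and 65 reads), and *Mmp8* (109 and 119 reads) was within 1.5-fold. All of these but *Ltf* were under 10 RPM in both libraries. *Ly6g*, a defining surface marker, had 0 reads in WT and 1 read in *Igfbp7*-/-, *Cebpe* had 0 in both, and *Mpo*, *Elane*, *Camp* and *Prtn3* had between 3 and 20 reads in each library. The list summed to 399.7 RPM in WT against 1731 RPM in the knockout, mostly from *Ltf* (369.0 and 1711 RPM), which mammary epithelium makes as well. Without *Ltf*, an exception made after its values were seen, the sum was 30.7 RPM against 19.0 RPM. The part of neutrophils in the *S100a8* and *S100a9* values was not tested.

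*S100a4* (metastasin, also used as a fibroblast marker and present in leukocytes) binds non-muscle myosin IIA and loosens its filaments. WT MECs gave 134 reads (3.90 RPM) and *Igfbp7*-/- MECs 62 (1.77 RPM), 2.14-fold lower in the latter (log2 ratio -1.10). These few reads gave a wide interval, from -1.80 to -0.51, which includes differences of less than 1.5-fold. *Myh9*, the heavy chain of that myosin, had 576.8 RPM in WT against 1194 RPM in the knockout (log2 ratio 1.05). *S100a4* and *Myh9* thus had ratios on opposite sides of 1, and the within-library ratio was 0.219 times that of WT (interval 0.138 to 0.341).

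*S100a6* (calcyclin), which lies next but one to *S100a4* and is abundant in epithelium and stroma, had nearly the same value in both libraries. The reads numbered 2274 (66.2 RPM) in WT against 2258 (64.5 RPM) in the knockout (log2 ratio -0.04, interval -0.16 to 0.08), and its ratio fell above or below 1 according to the scaling. *Cacybp*, which encodes the calcyclin-binding protein, was at 35.8 and 28.6 RPM (log2 ratio -0.32). The *S100a4* to *S100a6* ratio within a library was 0.0826 in WT and 0.0385 in *Igfbp7*-/- by RPKM, 0.466 times that of WT (interval 0.292 to 0.730).

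*S100a1*, best known as a regulator of calcium release in heart and skeletal muscle, and *S100a13*, which helps fibroblast growth factor 1 and interleukin 1 alpha leave the cell without a signal peptide, start 42 bp apart on opposite strands. Reads of *S100a1* numbered 442 (12.9 RPM) in WT against 375 (10.7 RPM) in the knockout (log2 ratio -0.26, interval -0.56 to 0.02). Those of *S100a13* numbered 207 (6.03 RPM) against 288 (8.22 RPM) (log2 ratio 0.44, interval 0.08 to 0.83). Both stayed within 1.5-fold, while the *S100a1* to *S100a13* ratio within a library was 0.606 times that of WT (interval 0.434 to 0.843). The cargo genes were lower in *Igfbp7*-/-: *Fgf1* had 71.4 RPM in WT against 41.0 RPM in the knockout (log2 ratio -0.80), and *Il1a* had 16.3 and 9.71 RPM (log2 ratio -0.75). *Ryr1* and *Ryr2*, the calcium release channels that S100A1 binds in muscle, had between 4 and 15 reads in each library.

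**Figure D2:**
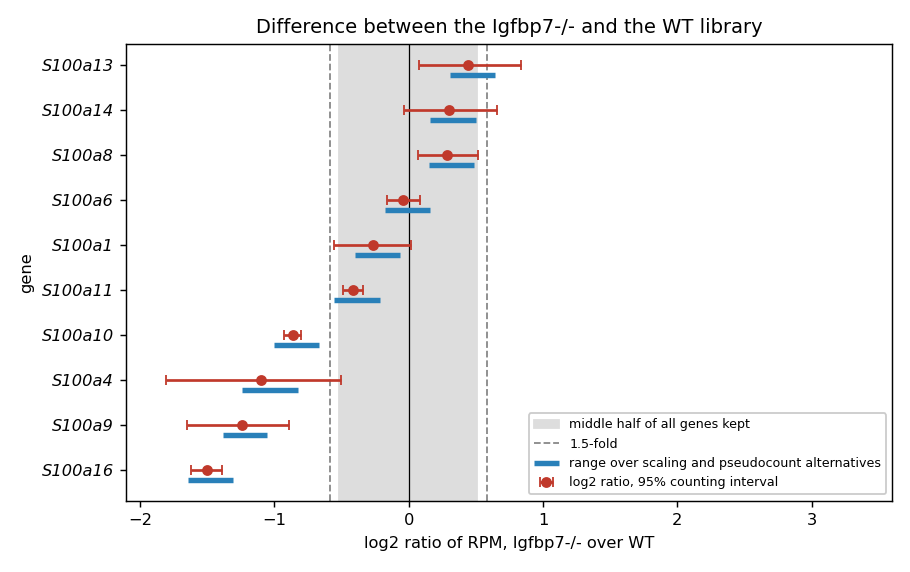
Log2 ratio of *Igfbp7*-/- over WT RPM (horizontal) for each S100 gene (vertical) with its 95% counting interval (red), the range over scaling and pseudocount alternatives (blue), the 1.5-fold limits (dashed) and the span between the quartiles of all 14026 genes (grey). *S100a16*, *S100a9*, *S100a4* and *S100a10* lie below the lower limit under every one of these alternatives, whereas *S100a13* reaches the upper limit in one of them.

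Outside the 10 genes, *S100a7a*, a keratinocyte gene related to psoriasin that lies between *S100a6* and *S100a8*, gave 45 reads (1.31 RPM) in WT against 108 (3.08 RPM) in the knockout. Its value was 2.26 times that of WT (log2 ratio 1.17, interval 0.53 to 2.05). *S100a3*, *S100a5*, *S100b*, *S100g* and *S100z* had between 0 and 32 reads in each library and stayed under 1 RPM. Along the cluster, *S100a16* lay between *S100a14* and *S100a3*, *S100a4* between *S100a3* and *S100a5*, and *S100a9* at the far end. The only listed S100 gene between *S100a16* and *S100a4* was *S100a3*, which stayed under 1 RPM and lies 57.1 kb beyond *S100a16*. Among the S100 genes that reached 1 RPM, *S100a16* and *S100a4*, both with lower values, thus came one after the other. That order passes over *S100a3* and the wide gap before it.

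**Figure D3:**
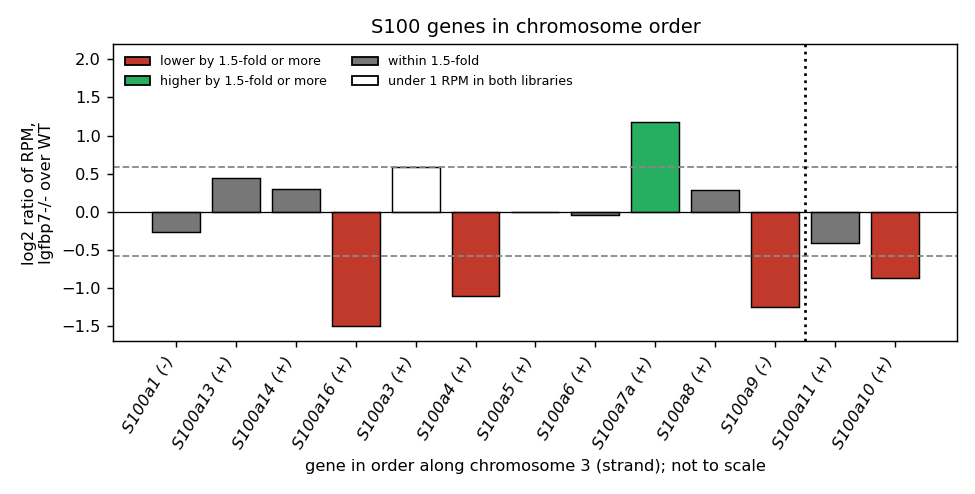
Log2 ratio of *Igfbp7*-/- over WT RPM (vertical) of the 13 listed S100 genes on chromosome 3 in chromosome order (horizontal, strand in brackets, not to scale), coloured by the 1.5-fold cutoff. The dotted line marks the gap of 2825 kb before *S100a11*. Within the cluster, *S100a3*, under 1 RPM in both libraries (white), is the only listed S100 gene between *S100a16* and *S100a4* (red, lower by 1.5-fold). *S100a16* and *S100a3* lie 57.1 kb apart.

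Genes for binding partners and receptors of S100 proteins were examined as a list of 36, of which 29 reached 1 RPM. Of these, 7 were lower in *Igfbp7*-/- by at least 1.5-fold, 5 were higher and 17 were within it, with a median log2 ratio of -0.25. The shares lower and higher were 24.1% and 17.2%, against 23.0% and 21.4% of all 14026 genes. Where the higher library had 10 RPM or more, the lowest ratios were those of *Cybb*, the catalytic subunit of the phagocyte NADPH oxidase that S100A8 and S100A9 assist (117.7 RPM in WT, 32.0 in *Igfbp7*-/-; log2 ratio -1.88), *Anxa6* (-0.88) and *Fgf1*. The highest were those of *Anxa1*, *Tlr4* and *Myh9*. The 3 partners with the highest ratios thus belonged to *S100a11*, *S100a8* with *S100a9*, and *S100a4*, none of which was higher by 1.5-fold. The S100-fused proteins, which join an S100 domain to a long repeat and work in the skin barrier, were nearly silent: of 7 in the tables *Tchh* alone reached 1 RPM (42 reads in WT, 66 in *Igfbp7*-/-). Of 21 cornified envelope genes of chromosome 3 in the tables, *Sprr1a* alone reached 1 RPM (40 and 34 reads). Among 34 other EF-hand genes kept, 9 were lower by at least 1.5-fold and 4 higher, with a median log2 ratio of -0.23. These were 26.5% and 11.8%, beside the same 23.0% and 21.4% of all genes. By the same 10 RPM minimum the lowest were *Myl9* (-2.20), a smooth muscle myosin light chain, *Sparc* (-1.39) and *Rcn3* (-0.94), and the highest *Efhd1* (1.11), *Gca* (1.06) and *Nucb2* (0.80).

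**Figure D4:**
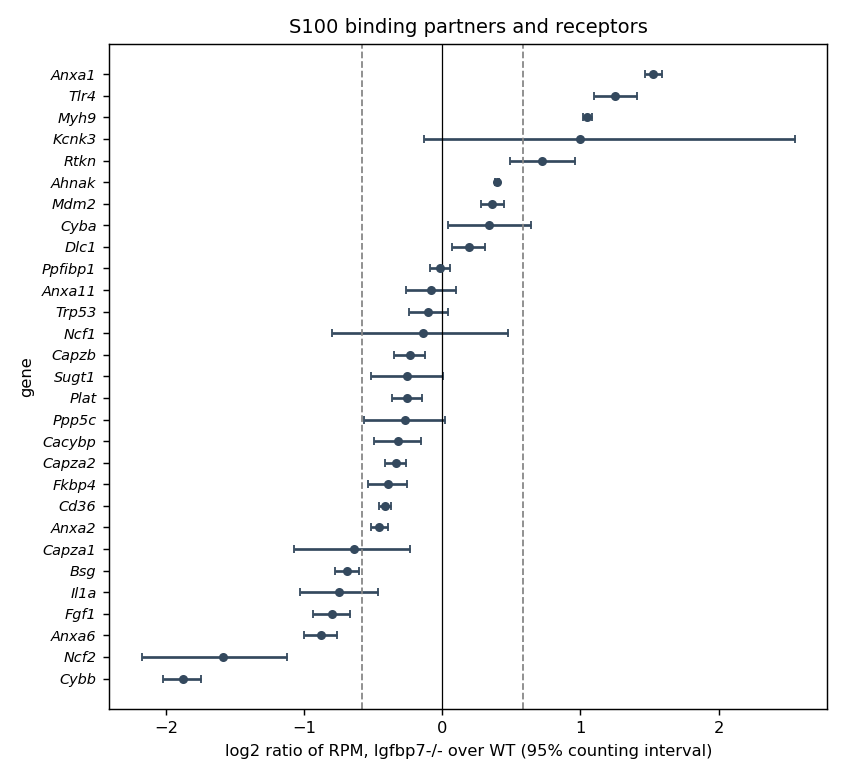
Log2 ratio of *Igfbp7*-/- over WT RPM (horizontal, bars 95% counting intervals, dashed lines 1.5-fold) for the 29 partner and receptor genes that reached 1 RPM (vertical). *Anxa1*, at 1.53, and *Cybb*, at -1.88, mark the ends of the range.

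Many markers of the cell types that the suspension could hold differed between the libraries. By the 1.5-fold cutoff, 23.0% of all 14026 genes were lower and 21.4% were higher. All 5 pan-leukocyte markers were lower in *Igfbp7*-/- (median log2 ratio -1.81, sums 156.6 and 50.2 RPM), as were 8 of 11 macrophage markers (median -1.47), with *C1qa* (-2.47), *C1qb* (-2.01) and *C1qc* lowest where the higher library had 10 RPM or more. Macrophage levels summed to 675.2 RPM in WT against 755.6 RPM in the knockout, and to 205.4 and 78.2 RPM without *Cd14*, left out after its values were seen. *Ptprc* (CD45) and *Pecam1* (CD31), whose proteins were used for the depletion, gave 43.5 and 322.5 RPM in WT and 18.1 and 88.9 RPM in the knockout. These are RNA levels. The paper measured the marker proteins on the depleted cells by flow cytometry and judged the remaining contamination insignificant. Of 5 endothelial markers 4 were lower (median -1.30, sums 1055 and 352.3 RPM). Of 8 myoepithelial and basal markers 7 were lower (median -1.79, sums 3586 and 1109 RPM), with *Cnn1* (-2.93), *Acta2* (-2.21) and *Trp63* (-1.99) lowest. Of 9 fibroblast markers 4 were lower and 1 higher (median -0.42, sums 10527 and 5754 RPM), from *Lum* (-2.25) to *Fbln1* (0.60). Of 4 adipocyte markers kept 3 were lower, among them *Fabp4* (-1.65), and *Lep* was higher (1.06), with a list median of -2.01. The adipocyte sums of 567.4 and 192.8 RPM came mostly from *Fabp4* (543.5 RPM in WT and 173.4 RPM in the knockout). All 5 milk protein markers were lower (median -1.38, sums 110194 and 41288 RPM), while 3 of 6 luminal markers were higher and 0 lower (median 0.99, sums 1449 and 3287 RPM), the highest being *Krt18* (2.23), *Krt8* (1.56) and *Krt19* (1.47). None of the leukocyte, macrophage, endothelial, myoepithelial, fibroblast, luminal, milk and adipocyte markers was at 0 reads in either library. Of 8 cornified epidermis markers *Krt10* alone reached 1 RPM (46 and 24 reads), and *Flg*, *Ivl*, *Krt2* and *Lce1a1* had 0 reads in both libraries. The part of these cell types in the lower values of *S100a4*, *S100a9*, *S100a10* and *S100a16* was not tested.

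**Figure D5:**
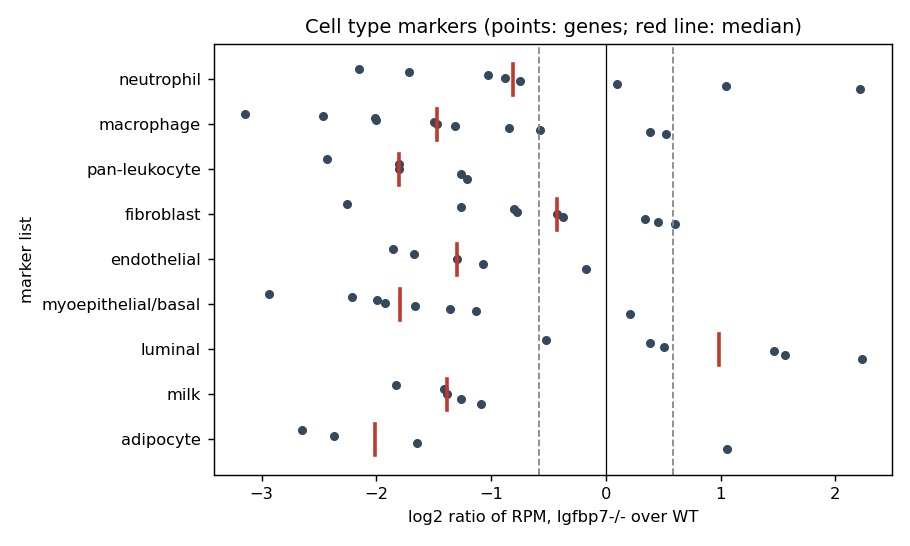
Log2 ratio of *Igfbp7*-/- over WT RPM (horizontal) of cell type marker genes that reached 1 RPM (points) by list (vertical), with the median in red and the 1.5-fold limits dashed. Leukocyte, endothelial, myoepithelial and milk markers lie mostly below the lower limit, and 3 of the 6 luminal markers lie above the upper one.

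The scaling of the libraries bears on these calls, since each RPM is divided by a total that includes reads outside the listed genes. Scaling instead to the sum of listed genes, with ribosomal and small nuclear RNA left out, shifted the median log2 ratio of all genes by 0.20, and taking the 20 most abundant genes out of the total shifted it by -0.14. The shares of all genes higher and lower were then 31.0% and 18.2%, and 16.7% and 27.4%. *S100a16*, *S100a9*, *S100a4* and *S100a10* were lower by at least 1.5-fold under both, and across all scalings and pseudocounts their log2 ratios came no nearer to 0 than -1.30, -1.05, -0.82 and -0.66. With a minimum of 10 RPM, which 7 of the 10 members reached, 3 of the 7 were lower and 0 higher, against 20.4% lower and 20.7% higher of 8201 genes. With a 2-fold cutoff 3 of the 10 members were lower and 0 higher, against 13.8% lower and 9.64% higher of all 14026 genes.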

How the data were processed

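RNA-Seq of lineage-depleted MECs was taken as deposited, with 1 library from WT and 1 from *Igfbp7*-/- mice on lactation day 3. The authors mapped paired-end SOLiD reads of 35 and 75 bp with a Bowtie-based GeneSifter pipeline, allowing at most 3 mismatches. The labels name Bowtie 0.12.3, SAMtools 0.1.15 and mm9, whereas the methods name a human build. The annotation, the strand setting and the handling of reads with several matches are not given in the sources used here. The authors deposited read counts per gene (blank for 0), RPM, which is the count per 1000000 reads of a total larger than the listed counts, and RPKM, which is the RPM per kilobase of their gene length. Rows without a symbol (50 per table, at most 0.0484% of the total) were left out.

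Log2 ratios of *Igfbp7*-/- to WT were calculated from the RPM with a pseudocount of 0.1, which understates differences of weakly expressed genes, for genes that reached 1 RPM in either library. Clopper-Pearson intervals of ratios, exact Poisson intervals of levels and conditional exact intervals of within-library ratios were computed on read pairs (count divided by 2, rounded down). Alternatives were pseudocounts of 1 and 0.01, edgeR and DESeq2 size factors, median centring, removal of the 20 genes with the highest RPM, scaling to listed genes, RPKM, other minimums (none, 10 RPM), a 2-fold cutoff and intervals on single reads. The members and lists were chosen with earlier results of these data known. Genes were named by a rule: all members, other S100 genes, and, from each list, up to 3 at either end of the log2 ratios where the higher library had 10 RPM or more, with the partners of a member described. Not every marker that the rule allows is printed, and genes under 10 RPM outside the S100 family and its partners were chosen after their values were seen (for neutrophils, every marker in the tables is printed), as were the exceptions of *Ltf*, *Cd14* and *S100a11*. Protein sequences were not used here. The ratio script was tested on simulated counts. Python 3.11.15, scipy 1.17.1, R 4.3.3, edgeR 4.0.16, DESeq2 1.42.0 and BLAST 2.17.0 were used. Positions are from the NCBIM37 annotation.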

Additional observations from a re-analysis of the deposited data

How the results depend on the processing

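The count of S100 genes lower in *Igfbp7*-/- by at least 1.5-fold was 4 under each scaling, under each pseudocount, with RPKM and with no minimum. It was 3 of 7 with a minimum of 10 RPM, which *S100a4*, *S100a13* and *S100a14* did not reach (20.4% of 8201 genes were lower), and 3 of 10 with a 2-fold cutoff, which *S100a10* did not reach (13.8% of 14026 genes were lower). The count of members higher was 0 except with scaling to the sum of listed genes, ribosomal and small nuclear RNA left out, where it was 1 (*S100a13*, log2 ratio 0.64). Of 80 log2 ratios of single members under the scaling and pseudocount alternatives, 72 lay inside the counting interval of the reported value and 8 outside it, and no member called at 1.5-fold changed direction. *S100a6*, which was not called, ranged from -0.18 to 0.16. On single reads in place of pairs, the intervals of *S100a1* (-0.47 to -0.06) and *S100a14* (0.06 to 0.55) no longer included 0. Among the partner, family and marker lists, median centring and edgeR scaling left each count within 1.5 times, except that the 1 higher fibroblast marker (*Fbln1*) was no longer called. No paired analysis was possible because each genotype had 1 library, and no replicate could be left out for the same reason. The widest counting intervals were those of *S100a4*, *S100a9* and *S100a13*, and the variation between animals was not measured for any member.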
